A study of Mus musculus with 49 samples.

Results

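A set of 10 genes that mark or build the endothelial barrier of the brain was followed in RNA sequencing of mouse neocortex: the junction genes Cldn5, Ocln, Cdh5 and Pecam1, the receptor gene Flt1, the transport genes Slc2a1, Abcb1a and Mfsd2a, and the leukocyte adhesion genes Vcam1 and Icam1. They were chosen by name and role, and all 10 of the 10 were found among the 45252 genes of the count table and among the 18220 genes with enough reads to be tested. Bulk RNA was sequenced from the neocortex of 49 mice of mixed strain (C57BL/6J x C3H/HeJ), 25 females and 24 males, with 1 library per mouse. The study asked how active immunization against peptides of the protein TDP-43 affects rNLS8 mice, a model of amyotrophic lateral sclerosis and frontotemporal dementia.

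The ctrl-PBS group (17 mice) was monogenic, carrying a single transgene, and received PBS. The TDP-PBS group (10 mice) was bigenic (rNLS8) and also received PBS. The TDP-10+12 group (10 mice) was bigenic and immunized with peptides 10 and 12 together, and the TDP-15 group (12 mice) was bigenic and immunized with peptide 15, which carries the disease-associated phosphorylation sites. Every immunization used 40 µg of peptide coupled to ovalbumin, with CpG oligonucleotide and adjuvant, first at 8 weeks of age. It was given 5 times before and 1 time after the transgene was switched on. The PBS groups received PBS in place of the conjugates, and whether they also received CpG and adjuvant is not stated outright. Doxycycline was withdrawn from all 49 mice at 25.5 weeks, and all were perfused with PBS and sacrificed 3 weeks later at 28.5 weeks. In bigenic mice the withdrawal lets NEFH-tTA, a driver active in neurons, turn on tetO-hTDP-43ΔNLS, a human TDP-43 that lacks the signal for nuclear import. Which of the transgenes the monogenic mice carry is not given in the sources used here. Monogenic immunized mice were not analysed here, so the peptides could be compared on the rNLS8 background alone.

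The blood–brain barrier is a layer of endothelial cells joined by tight junctions, which closes the space between cells. Nutrients therefore have to cross through dedicated transporters such as the glucose transporter GLUT1, and efflux pumps return many lipophilic compounds to the blood. Resting brain endothelium displays few adhesion molecules, and inflammatory cytokines are known to raise them so that leukocytes can attach. In bulk tissue, fewer cells of a type and less RNA per cell cannot be told apart, and Icam1, Vcam1, Slc2a1, Pecam1 and Flt1 are also transcribed outside endothelial cells.

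Total counts per mouse lay between 17775738 and 21033608, and 3 counts, taken as the detection floor, corresponded to 0.139 to 0.165 CPM. CPM is the count of a gene scaled to a common library total, here with edgeR's TMM factors. The tissue was given as neocortex, and 8 neuronal markers summed to 7441 to 9077 CPM in ctrl-PBS mice and 5484 to 6757 CPM in TDP-PBS mice. Microglial markers summed to 248 to 287 CPM in ctrl-PBS mice and to 250 to 556 CPM across the rNLS8 groups. A few libraries stood apart by markers of the choroid plexus, an epithelial tissue outside the cortex with its own leaky vessels. These 4 were TDP-PBS mouse 26, TDP-10+12 mice 51 and 200 and TDP-15 mouse 243, with 1085 to 1710 CPM over 6 markers against at most 378 CPM in any other mouse. Values without these 4 mice are given where a call depended on them.

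Per kilobase of exon, the 10 genes spanned a wide range in ctrl-PBS cortex. Slc2a1 (26.0 ± 3.60 CPM per kb, SD, n = 17) and Cldn5 (25.8 ± 6.46 CPM per kb) were the highest, and their ranges overlapped, with Slc2a1 above Cldn5 in 10 of 17 mice. Mfsd2a (6.75 ± 1.08 CPM per kb), Cdh5 (4.64 ± 0.497 CPM per kb), Flt1 (3.79 ± 0.328 CPM per kb) and Abcb1a (3.73 ± 0.411 CPM per kb) followed, and each overlapped its neighbour in this order. Pecam1 (2.30 ± 0.283 CPM per kb) overlapped Vcam1 (1.93 ± 0.264 CPM per kb). Ocln (0.807 ± 0.157 CPM per kb) and Icam1 (0.622 ± 0.107 CPM per kb) were the lowest, with overlapping ranges. In each of the 3 rNLS8 groups Ocln took the last place and Icam1 stood above it in 10 of 10, 10 of 10 and 10 of 12 mice. Lengths are unions of all annotated exons, so a gene transcribed mainly from a short isoform, as can be the case for Flt1 with its soluble form, reads too low on this scale.

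The first comparison set bigenic against monogenic mice, both treated with PBS. If the monogenic mice lack NEFH-tTA, an effect of the driver itself cannot be told apart from that of hTDP-43ΔNLS. In TDP-PBS mice 4 of the 10 members were called higher than in ctrl-PBS mice and 0 lower (edgeR quasi-likelihood test, adjusted p under 0.05), namely Icam1, Vcam1, Slc2a1 and Abcb1a. Of all 18220 genes, 43.5% were called in this comparison, 21.9% higher and 21.6% lower, so the number of called members was close to the background of the tissue. The median log2 fold change of the 10 members was 0.12, against 0.00 over all genes. In TDP-10+12 mice 2 members were higher and 0 lower, against 40.8% of all genes called, 20.8% higher and 20.0% lower. In TDP-15 mice 3 members were higher and 2 lower, against 46.9% of all genes called, 23.6% higher and 23.2% lower. The 3 comparisons share the same ctrl-PBS mice and are therefore not independent.

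**Figure D1:**
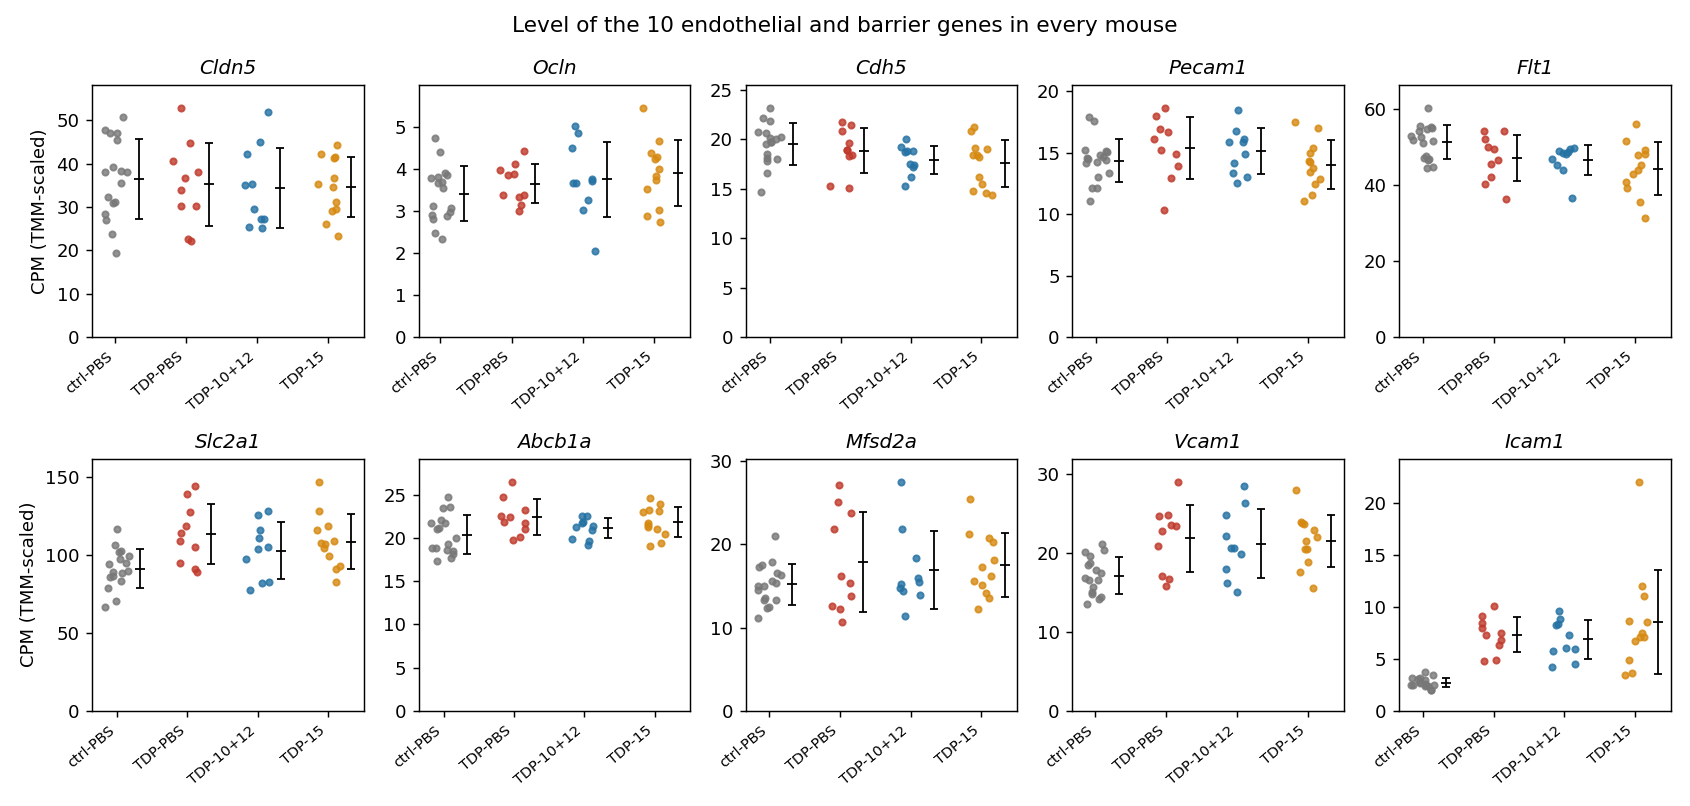
Level of each of the 10 genes in every mouse, in TMM-scaled CPM on a linear axis from 0, by group; each point is 1 mouse and the black bar is the mean ± SD (n = 17, 10, 10 and 12). Icam1 lay above every ctrl-PBS mouse in 30 of the 32 rNLS8 mice, whereas Cldn5 did so in 2 and the groups overlapped throughout.

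Icam1 encodes ICAM-1, the endothelial ligand of leukocyte β2 integrins, which microglia also make. It lies on chromosome 9 from 21015985 to 21028817 on the plus strand (ENSMUSG00000037405.8, GRCm38). Its level was 1.98 CPM at the lowest, 2.59 at the median and 3.70 at the highest in ctrl-PBS mice. In TDP-PBS mice it ran from 4.82 over a median of 7.43 to 10.1 CPM, in TDP-10+12 mice from 4.17 over 6.66 to 9.64 CPM, and in TDP-15 mice from 3.47 over 7.30 to 22.1 CPM. All TDP-PBS and TDP-10+12 mice were thus above every ctrl-PBS mouse, and in TDP-15 only mice 184 and 284, at 3.47 and 3.63 CPM, fell within the control range. The change was 2.70-fold in TDP-PBS (95% confidence interval 2.10 to 3.48, edgeR adjusted p = 4.44e-09), 2.53-fold in TDP-10+12 (1.97 to 3.26, edgeR adjusted p = 2.84e-08) and 3.15-fold in TDP-15 (2.48 to 4.01, edgeR adjusted p = 1.85e-11). TDP-15 mouse 126 was the highest of all mice, with 22.1 CPM of Icam1 against 12.0 CPM in the next mouse.

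Icam1 and Vcam1 were the members called against ctrl-PBS in all 3 rNLS8 groups. The 250 bases before the RefSeq start of Icam1 (GRCm38.p6, chr9:21015690-21015939, plus strand) are shown because the largest change of the set was measured at this gene. Of 9 short motifs searched on both strands, 1 matched, overlapping no other, and its bases are in capitals.
Icam1 upstream: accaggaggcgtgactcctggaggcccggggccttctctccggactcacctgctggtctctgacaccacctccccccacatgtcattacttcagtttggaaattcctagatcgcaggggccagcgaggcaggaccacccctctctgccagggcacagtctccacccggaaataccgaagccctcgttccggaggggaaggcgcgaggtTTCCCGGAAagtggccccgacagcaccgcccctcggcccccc
The capitals mark a gamma-activated site motif (GAS, TTCNNNGAA), 42 to 34 bases before the start. Such a match was present in the same 250 bases of 7.02% of 32851 RefSeq promoters. The κB motif was searched as GGGRNWYYCC, where R is A or G, N any base, W A or T and Y C or T. These exact letters were not in this window, but its stretch tggaaattcc differs from them only at the first base. Near matches of this kind were not searched or marked, so a κB site is not excluded. The letters of the interferon-stimulated response element (GAAA, any 2 bases, GAAA), AP-1 (TGACTCA or TGAGTCA), ETS (CCGGAAGT), TCF/LEF (ATCAAAG), SOX (AACAAT), the hypoxia E-box (ACGTG) and the TATA box (TATAAA) were also absent. Each of the motifs without a match was held by 2.88% to 16.6% of the promoters.

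Vcam1 encodes VCAM-1, the ligand of α4β1 integrin on lymphocytes and monocytes. It lies on chromosome 3 from 116109949 to 116129688 on the minus strand (ENSMUSG00000027962.14). Ctrl-PBS mice ran from 13.6 over a median of 16.7 to 21.1 CPM. The TDP-PBS range was 15.8 to 29.0 CPM with a median of 23.1, the TDP-10+12 range 15.0 to 28.4 CPM with a median of 20.6, and the TDP-15 range 15.5 to 27.9 CPM with a median of 21.7. The groups overlapped at their lower ends, and 6, 4 and 7 mice of the 3 rNLS8 groups were above every ctrl-PBS mouse. The log2 fold change was 0.35 ± 0.09 (SE) in TDP-PBS (edgeR adjusted p = 0.00171), 0.31 ± 0.09 in TDP-10+12 (edgeR adjusted p = 0.00668) and 0.33 ± 0.09 in TDP-15 (edgeR adjusted p = 0.00175). All 17 mice with Vcam1 above the control range also had Icam1 above it, as had 30 of all 32 rNLS8 mice.

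Markers of microglia were higher beside the adhesion genes. Of 8 such markers, 6 were higher in TDP-PBS, 6 in TDP-10+12 and 6 in TDP-15 than in ctrl-PBS, with 1 lower in each immunized group, and their sum had medians of 373, 349 and 353 CPM against 267 CPM. The 6 astrocyte markers summed to a median of 1181, 1129 and 1134 CPM against 938 CPM, although only 1 of the 6 was called higher in each comparison. Another 28 endothelial genes summed to medians of 417, 405 and 400 CPM against 429 CPM. The part of microglia and astrocytes in the Icam1 and Vcam1 values was not tested.

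Slc2a1 encodes GLUT1, the glucose transporter of the barrier, and lies on chromosome 4 from 119108711 to 119137983 on the plus strand (ENSMUSG00000028645.11). It ran from 66.6 over a median of 89.4 to 117 CPM in ctrl-PBS mice and from 89.3 over 112 to 144 CPM in TDP-PBS mice. In TDP-10+12 mice it ran from 77.4 over 104 to 128 CPM, and in TDP-15 mice from 82.8 over 107 to 147 CPM. Groups overlapped, with 9 of the 32 rNLS8 mice above every ctrl-PBS mouse and none below. The increase was 1.24-fold in TDP-PBS (95% confidence interval 1.10 to 1.40, edgeR adjusted p = 0.00272) and 1.19-fold in TDP-15 (1.06 to 1.34, edgeR adjusted p = 0.0102). In TDP-10+12 the ratio was 1.13 (0.998 to 1.27, edgeR adjusted p = 0.111) and was not called.

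Abcb1a encodes P-glycoprotein, the main efflux pump of rodent brain endothelium, and lies on chromosome 5 from 8660077 to 8748575 on the plus strand (ENSMUSG00000040584.8). Its medians were 20.0 CPM in ctrl-PBS (range 17.3 to 24.7), 22.2 in TDP-PBS (19.8 to 26.6), 21.4 in TDP-10+12 (19.3 to 22.6) and 21.7 in TDP-15 (19.1 to 24.7). Only 2 rNLS8 mice were above every control, and the ranges overlapped almost fully. The difference of 1.10-fold in TDP-PBS (1.02 to 1.18, edgeR adjusted p = 0.0329) was called, and those of 1.03-fold in TDP-10+12 (0.961 to 1.11, edgeR adjusted p = 0.487) and 1.07-fold in TDP-15 (1.0002 to 1.15, edgeR adjusted p = 0.0939) were not. The call in TDP-PBS was lost when any of 5 mice was left out in turn (TDP-PBS 42, 82 or 196, ctrl-PBS 137 or 232; highest edgeR adjusted p = 0.0732) and without a filter on low counts (edgeR adjusted p = 0.0638). Its close paralogue Abcb1b rose by 0.54 ± 0.13 on the log2 scale in TDP-PBS, from 2.53 ± 0.494 to 3.69 ± 0.868 CPM (edgeR adjusted p = 0.000384), and since the counting of shared reads is not described, values of both are uncertain.

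Mfsd2a encodes the transporter that carries lysophosphatidylcholine with docosahexaenoic acid into the brain and keeps vesicular transport low. It lies on chromosome 4 from 122946850 to 122961188 on the minus strand (ENSMUSG00000028655.11). Medians were 15.0 CPM in ctrl-PBS (11.2 to 21.0), 15.8 in TDP-PBS (10.6 to 27.1), 15.3 in TDP-10+12 (11.4 to 27.6) and 16.8 in TDP-15 (12.2 to 25.5). The medians lay close together while the upper ends spread, with 8 of 32 rNLS8 mice above and 1 below every ctrl-PBS mouse, and the coefficient of variation was 33.7% in TDP-PBS against 16.0% in ctrl-PBS. None of the 3 differences was called, with log2 fold changes of 0.23 (95% confidence interval −0.03 to 0.50), 0.15 (−0.11 to 0.42) and 0.21 (−0.04 to 0.45), and edgeR adjusted p-values of 0.146, 0.371 and 0.172.

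Of the junction genes, Cldn5, Ocln and Pecam1 were not called in any group. Cldn5 encodes claudin-5, the dominant tight junction protein of brain endothelium, and lies on chromosome 16 from 18776847 to 18778262 on the plus strand (ENSMUSG00000041378.2). It had medians of 38.1 CPM in ctrl-PBS (19.4 to 50.8), 35.3 in TDP-PBS (22.1 to 52.9), 32.4 in TDP-10+12 (25.2 to 51.9) and 34.9 in TDP-15 (23.3 to 44.4). The 4 ranges covered each other, and the coefficient of variation within ctrl-PBS was already 25.1%. Log2 fold changes were −0.05 (95% confidence interval −0.33 to 0.23), −0.08 (−0.36 to 0.19) and −0.08 (−0.34 to 0.18), and none was called (edgeR adjusted p = 0.795, 0.665 and 0.666). These intervals leave room for a fold of 0.779 at the lower and 1.17 at the upper end.

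Ocln encodes occludin, a second tight junction protein, and lies on chromosome 13 from 100496507 to 100552718 on the minus strand (ENSMUSG00000021638.12). With 41 to 102 counts per mouse it was, beside Icam1, the member with the fewest reads. Medians were 3.54 CPM in ctrl-PBS (2.32 to 4.74), 3.62 in TDP-PBS (2.99 to 4.43), 3.69 in TDP-10+12 (2.04 to 5.02) and 3.91 in TDP-15 (2.74 to 5.45). The groups overlapped, and the log2 fold changes of 0.10 (−0.13 to 0.33), 0.14 (−0.09 to 0.37) and 0.19 (−0.02 to 0.41) were not called (edgeR adjusted p = 0.521, 0.349 and 0.140).

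Cdh5 encodes VE-cadherin, which holds the adherens junctions between endothelial cells, and lies on chromosome 8 from 104101625 to 104144511 on the plus strand (ENSMUSG00000031871.9). Medians were 19.8 CPM in ctrl-PBS (14.7 to 23.2), 18.9 in TDP-PBS (15.1 to 21.7), 18.1 in TDP-10+12 (15.3 to 20.0) and 18.3 in TDP-15 (14.3 to 21.2). All rNLS8 values but 2 of TDP-15 lay within the control range. The log2 difference was −0.05 (−0.18 to 0.08, edgeR adjusted p = 0.575) in TDP-PBS and −0.12 (−0.26 to 0.01, edgeR adjusted p = 0.134) in TDP-10+12, neither of them called. Cdh5 fell by 0.15 on the log2 scale in TDP-15 (edgeR adjusted p = 0.0413), and the call was lost in 14 of the 29 fits that left out 1 mouse (highest edgeR adjusted p = 0.0952) and without the mice rich in choroid plexus markers (edgeR adjusted p = 0.0618).

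Pecam1 encodes PECAM-1 (CD31), a contact protein of endothelial cells that platelets and leukocytes also carry, and lies on chromosome 11 from 106654217 to 106750628 on the minus strand (ENSMUSG00000020717.19). Medians were 14.5 CPM in ctrl-PBS (11.1 to 17.95), 15.7 in TDP-PBS (10.3 to 18.7), 15.4 in TDP-10+12 (12.6 to 18.5) and 14.0 in TDP-15 (11.1 to 17.5). Of the 32 rNLS8 mice, 3 were above and 2 below every control. Log2 fold changes of 0.10 (−0.05 to 0.26), 0.08 (−0.08 to 0.23) and −0.03 (−0.18 to 0.12) were not called (edgeR adjusted p = 0.302, 0.467 and 0.771).

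Flt1 encodes VEGFR1, a high-affinity receptor and decoy for vascular endothelial growth factor, and lies on chromosome 5 from 147561604 to 147726011 on the minus strand (ENSMUSG00000029648.13). It ran from 44.4 over a median of 51.8 to 60.2 CPM in ctrl-PBS mice, from 36.4 over 48.0 to 54.1 CPM in TDP-PBS, from 36.4 over 48.2 to 49.7 CPM in TDP-10+12 and from 31.2 over 44.6 to 55.9 CPM in TDP-15. No rNLS8 mouse was above the controls, and 3, 2 and 6 mice of the 3 rNLS8 groups were below every ctrl-PBS mouse. Flt1 fell by 0.21 on the log2 scale in TDP-15 (SE 0.06, edgeR adjusted p = 0.00441), a ratio of 0.863 (0.791 to 0.942), and this held in all 29 fits that left out 1 mouse. The ratios of 0.918 in TDP-PBS (0.837 to 1.01, edgeR adjusted p = 0.129) and 0.907 in TDP-10+12 (0.827 to 0.995, edgeR adjusted p = 0.0848) were not called.

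**Figure D2:**
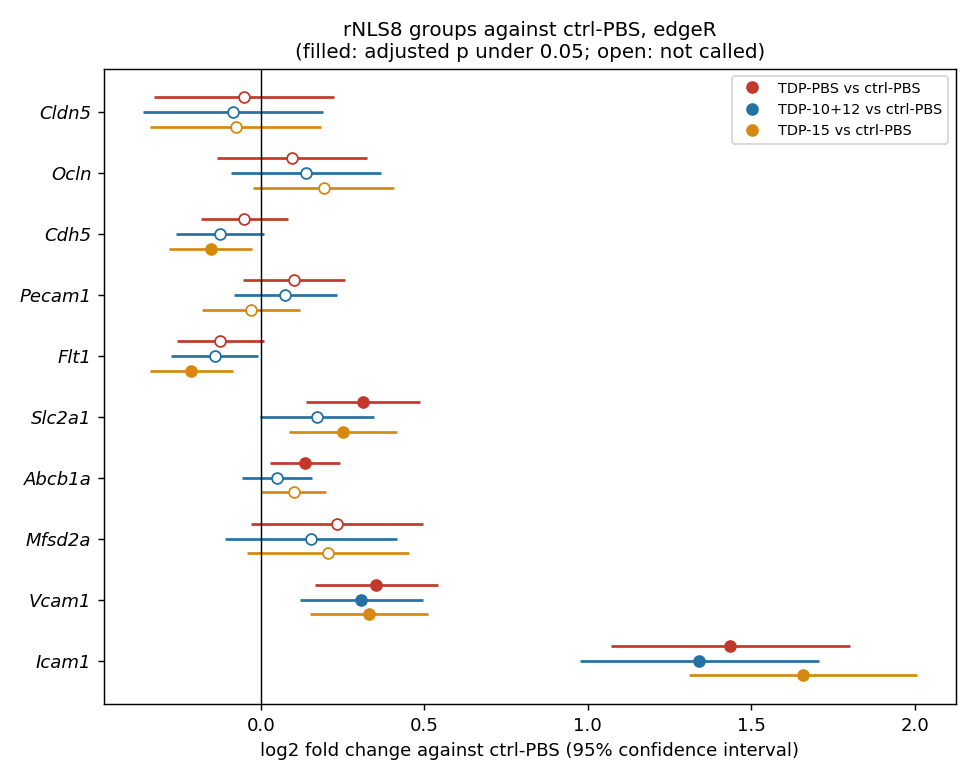
Log2 fold change of each gene in the 3 rNLS8 groups against ctrl-PBS, with 95% confidence intervals from the edgeR fit of all 49 mice; filled points passed an adjusted p of 0.05 and open points did not. Icam1 stands apart at 1.34 to 1.66, Vcam1 is near 0.33 in each group, and the intervals of Cldn5, Ocln, Pecam1 and Mfsd2a cover 0 in each group.

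Endothelial RNA was next summarized by 28 further endothelial genes that are not among the 10. Their mean log2 CPM was 3.33 ± 0.11 in ctrl-PBS (SD, n = 17), 3.25 ± 0.14 in TDP-PBS (n = 10), 3.22 ± 0.11 in TDP-10+12 (n = 10) and 3.17 ± 0.11 in TDP-15 (n = 12). The number of the 28 called lower was 4, 5 and 12, and the number called higher 2, 1 and 2, in the same order of groups, with median log2 fold changes of −0.07, −0.13 and −0.17. The 12 of 28 in TDP-15 stand beside 23.2% of all genes called lower there. Sox18, a transcription factor of endothelium, and Kdr, the main VEGF receptor, fell in TDP-PBS by 0.46 ± 0.12 and 0.33 ± 0.13 on the log2 scale (edgeR adjusted p = 0.00116 and 0.0328). Ly6a and Ly6c1, surface proteins that brain endothelium displays and interferon is known to raise, rose by 0.48 ± 0.18 and 0.38 ± 0.13 (edgeR adjusted p = 0.0275 and 0.0110).

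With this mean as a covariate in the fit, the calls moved. The mean itself differed between groups and some of its genes were called, so it is not a plain measure of endothelial content. Adjusting for it can also take out or add part of a group difference. The lower calls of Cdh5 and Flt1 in TDP-15 were lost, at −0.00 (edgeR adjusted p = 0.986) and −0.10 (edgeR adjusted p = 0.230) on the log2 scale. Pecam1 was called higher in all 3 groups, at 0.18 (edgeR adjusted p = 0.0135), 0.20 (edgeR adjusted p = 0.00916) and 0.16 (edgeR adjusted p = 0.0468). Slc2a1 in TDP-10+12 (0.25, edgeR adjusted p = 0.0204) and Abcb1a (0.14, edgeR adjusted p = 0.0388) and Mfsd2a (0.34, edgeR adjusted p = 0.0407) in TDP-15 were also called higher then. All 9 higher calls made without the covariate, those of Icam1, Vcam1, Slc2a1 and Abcb1a, were kept with it.

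The second comparison asked whether immunization changed the 10 genes in rNLS8 mice. Between the rNLS8 groups 0 of 10 members were called in any of the 3 comparisons by edgeR, 0 also at an unadjusted p under 0.05, and 0 by DESeq2 and by limma-voom. The background was the same, with 0% of the 18220 genes called in TDP-10+12 against TDP-PBS, in TDP-15 against TDP-PBS or in TDP-10+12 against TDP-15, and 953, 552 and 1244 genes at an unadjusted p under 0.05. Icam1 in TDP-15 against TDP-PBS differed by 0.22 on the log2 scale (95% confidence interval −0.16 to 0.60), and by −0.00 when TDP-15 mouse 126 was left out. Icam1 in TDP-10+12 differed from TDP-PBS by −0.09 (−0.49 to 0.31) and from TDP-15 by −0.32 (−0.70 to 0.07). Vcam1 differed by −0.05 (−0.26 to 0.17), −0.02 (−0.22 to 0.18) and −0.02 (−0.23 to 0.18) in the 3 comparisons in the same order. Slc2a1 differed by −0.14 (−0.34 to 0.06), −0.06 (−0.25 to 0.13) and −0.08 (−0.27 to 0.11). The intervals of the other 7 members were narrower than that of Icam1, and differences inside them were not detectable with these group sizes.

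The effect of the genotype in females and males was compared in the 27 PBS-treated mice. None of the 10 members had a difference that passed the adjusted threshold (edgeR interaction term, smallest adjusted p of a member 0.761), nor did any of the 18589 genes tested, 1167 of which had an unadjusted p under 0.05. DESeq2 also called 0 genes, with 1413 at an unadjusted p under 0.05. Flt1 and Abcb1a were the 2 members under that unadjusted level. Flt1 averaged 49.9 CPM in 10 ctrl-PBS females and 50.6 CPM in 4 TDP-PBS females, but 53.1 CPM in 7 ctrl-PBS males and 44.7 CPM in 6 TDP-PBS males (edgeR p = 0.0242, adjusted p = 0.761). Abcb1a averaged 19.6 and 23.7 CPM in females and 21.6 and 21.6 CPM in males (edgeR p = 0.0227, adjusted p = 0.761).

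Members also varied between mice of one group, and some did so together. After the group means were subtracted from log2 CPM, 4 of the 45 pairs of members were correlated over the 49 mice at an adjusted p under 0.05 in both Pearson's and Spearman's measure (two-sided permutation within groups, Benjamini-Hochberg over 45 pairs), and all 4 were positive. The 2 transporters Slc2a1 and Mfsd2a had the closest relation, with r = 0.70 (permutation p = 1e-05, the smallest the 100000 permutations can give, adjusted p = 0.00045) and rho = 0.70 (the same p and adjusted p). It was 0.71 without the 2 mice with the most extreme Slc2a1, and between 0.52 and 0.87 within the 4 groups. Of the 9 rNLS8 mice with Slc2a1 above every control and the 8 with Mfsd2a above every control, 6 were the same mice. Vcam1 and Icam1 followed with r = 0.58 (permutation p = 2e-05, adjusted p = 0.00045) and rho = 0.51 (permutation p = 0.0004, adjusted p = 0.009). Within groups r was 0.37 to 0.85, and it was 0.55 without the 2 mice with the most extreme Vcam1. Mice were not left out by their Icam1 level, so the weight of the highest Icam1 value was not examined this way.

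Cdh5 and Pecam1, both proteins of the endothelial contact, gave r = 0.50 (permutation p = 0.00063, adjusted p = 0.00945) and rho = 0.46 (permutation p = 0.00167, adjusted p = 0.0188). Without the 2 mice with the most extreme Cdh5 r was 0.39, and it was 0.17 to 0.75 within groups. Cdh5 and Vcam1 gave r = 0.44 (permutation p = 0.00172, adjusted p = 0.0193) and rho = 0.47 (permutation p = 0.00117, adjusted p = 0.0175). Their r was 0.43 without the 2 mice with the most extreme Cdh5 and 0.32 to 0.62 within groups. Cldn5 was correlated at the adjusted threshold with no other member, and its r with Cdh5 was 0.34 (permutation p = 0.0201, adjusted p = 0.113; rho = 0.30, permutation p = 0.0413, adjusted p = 0.186).

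**Figure D3:**
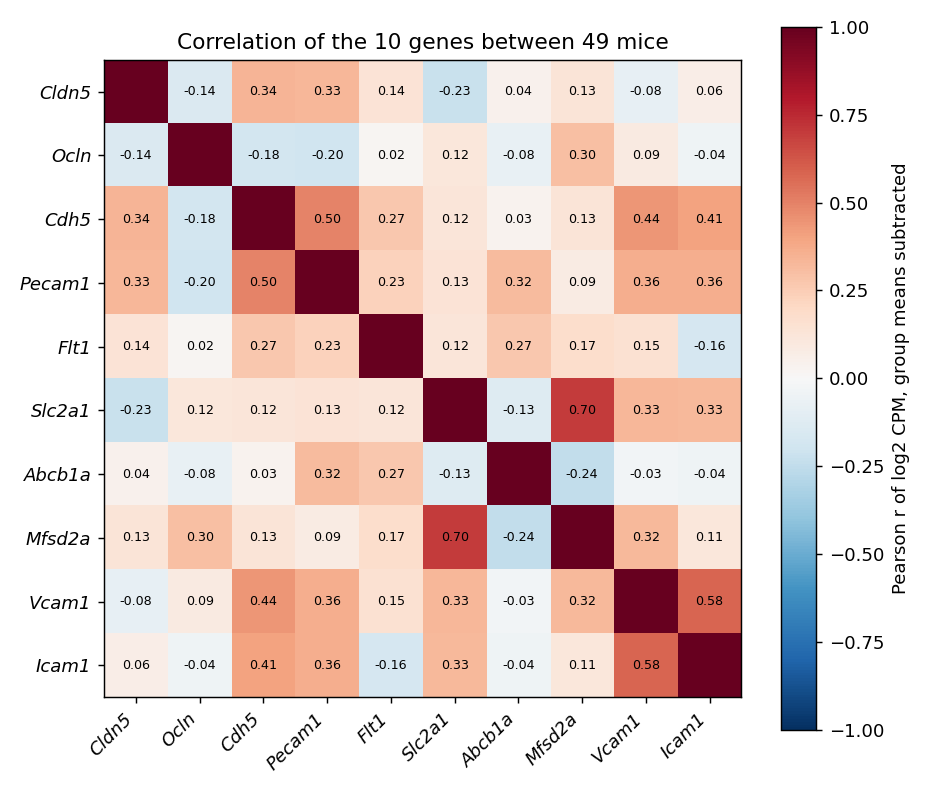
Pearson's r between the 10 genes over 49 mice, computed on log2 CPM after subtracting each group's mean; red is positive and blue negative, on a scale from −1 to 1. The pairs Slc2a1 with Mfsd2a (0.70) and Vcam1 with Icam1 (0.58) are the strongest.

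The genes of the whole table whose residual levels were most like 4 of the members differed from one member to the next. Each r below is over 49 mice and is given as a description, since the genes were picked as the highest of all those tested. For Cldn5 they were Sphk2 (r = 0.64), P3h3 (0.63), Sox18 (0.63), Zfp36l1 (0.62) and Lsr (0.61), of which Sox18 is an endothelial transcription factor and Lsr a protein of tricellular junctions. For Slc2a1 they were Hif3a (r = 0.81), Tsc22d3 (0.79), Sdc4 (0.77), Rhob (0.77) and Paqr5 (0.76), where Tsc22d3 is a textbook target of glucocorticoids. For Icam1 they were Ccl5 (r = 0.80), Tspo (0.79), Gbp6 (0.76), Ifit2 (0.76) and Irf9 (0.75), with Ccl5 a chemokine and Gbp6, Ifit2 and Irf9 interferon-responsive genes. For Vcam1 they were Vim (r = 0.73), Ednrb (0.71), Magt1 (0.70), Cd151 (0.70) and Vcl (0.67), where Vim encodes the intermediate filament vimentin and Ednrb an endothelin receptor. The rho of the same genes lay between 0.61 and 0.80.

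Lists of genes around the 10 members show how the barrier and its signals stood in TDP-PBS mice against ctrl-PBS. Among 20 further junction genes, 2 were higher and 6 lower, with a median log2 fold change of 0.02. Cgn (cingulin) and F11r (JAM-A) rose by 0.42 ± 0.09 and 0.44 ± 0.10 (edgeR adjusted p = 0.000223 and 0.00052), and Cldn12 and Magi1, which are not confined to vessels, fell by 0.43 ± 0.05 and 0.38 ± 0.04 (edgeR adjusted p = 4.63e-11 and 5.06e-10). Among 25 further transport genes 5 were higher and 5 lower (median 0.04). Beside Abcb1b, the amino acid transporter subunit Slc3a2 rose by 0.37 ± 0.05 (edgeR adjusted p = 8.68e-09), whereas the zinc transporter Slc39a10 fell by 0.90 ± 0.07 (edgeR adjusted p = 7.11e-15) and the glutamine transporter Slc38a5 by 0.52 ± 0.18 (edgeR adjusted p = 0.0186).

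Wnt signals from neural cells maintain the barrier through β-catenin. Of 20 genes of this pathway 3 were higher and 5 lower in TDP-PBS (median −0.04). The ligands Wnt7a and Wnt7b fell by 0.50 ± 0.12 and 0.33 ± 0.08 (edgeR adjusted p = 0.000572 and 0.000407), while their endothelial coreceptor Reck and the coactivator Tspan12 rose by 0.26 ± 0.07 and 0.30 ± 0.07 (edgeR adjusted p = 0.00107 and 0.000665). Of 18 genes of VEGF, angiopoietin and apelin signaling 2 were higher and 2 lower (median 0.04). Vegfa, a ligand of Flt1, fell by 0.51 ± 0.08 and Apln by 1.02 ± 0.11 (edgeR adjusted p = 1.45e-06 and 1.75e-11), and Vegfb, which binds Flt1 alone of the VEGF receptor kinases, rose by 0.29 ± 0.05 (edgeR adjusted p = 6.26e-07), as did Angpt1 by 0.39 ± 0.14 (edgeR adjusted p = 0.0217). Of 9 genes of caveolae and vesicles 1 was higher, Ehd2, and 2 were lower, Cav2 and Cltc (median 0.05), at 0.37 ± 0.11, −0.43 ± 0.11 and −0.21 ± 0.04 (edgeR adjusted p = 0.00559, 0.00131 and 4.98e-05).

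Genes of the signals known to induce Icam1 and Vcam1 moved one way. Whether these signals acted on Icam1 or Vcam1 in these mice was not tested. Of 19 tested genes of NF-κB, TNF, interleukin-1 and interferon signaling, 17 were higher in TDP-PBS, 17 in TDP-10+12 and 16 in TDP-15, and 0 were lower in any of them, beside 21.9%, 20.8% and 23.6% of all genes called higher. Their median log2 fold changes were 0.67, 0.55 and 0.54. Tnf, the gene of the cytokine TNF, was called higher in TDP-PBS (edgeR adjusted p = 7.65e-05), but at levels near the floor, with a median of 0 CPM in ctrl-PBS and 0.705 CPM in TDP-PBS.

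The leukocyte side was less uniform. Of 9 tested integrin chains and other ligands that bind ICAM-1, VCAM-1 and selectins, 5 were higher and 1 lower in TDP-PBS. This stands beside 21.9% of all genes called higher and 21.6% lower, and the median log2 fold change of the 9 was 0.41. In TDP-10+12, 4 were higher and 0 lower, and in TDP-15, 4 were higher and 1 lower. Itgb2, the β chain shared by the receptors of ICAM-1, rose by 0.88 ± 0.12 (edgeR adjusted p = 1.65e-08) and Itgax by 3.63 ± 0.38 (edgeR adjusted p = 2.52e-11), from 0.316 ± 0.211 to 3.98 ± 1.68 CPM; microglia carry both. Itga4, the α chain of the receptor of VCAM-1, fell by 0.62 ± 0.15 in TDP-PBS (edgeR adjusted p = 0.000609). It was also lower in TDP-15 (−0.54, edgeR adjusted p = 0.00117) but was not called in TDP-10+12 (−0.22, edgeR adjusted p = 0.243). Of 10 other adhesion genes 2 were higher and 4 lower. Cd44 rose by 1.47 ± 0.22 and Ninj1 by 0.59 ± 0.07 (edgeR adjusted p = 2.6e-07 and 2.33e-09), and Alcam fell by 0.71 ± 0.09 and Cd99 by 0.53 ± 0.16 (edgeR adjusted p = 7.81e-09 and 0.00667). Of the T cell markers only 2 had enough reads to be tested, of which 1 was higher and 1 lower. The 6 markers found among the counted genes summed to 4.37 to 37.1 CPM in ctrl-PBS (median 22.6) and 7.53 to 19.0 CPM in TDP-PBS (median 11.9). Their median sums in TDP-10+12 and TDP-15 were both 10.7 CPM. Blood cell markers, mainly hemoglobin transcripts, varied from 17.0 to 618 CPM between mice, and 0 of 5 were called in any group.

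The other cells of the vessel wall were compared in the same way. Of 11 pericyte markers 0 were higher and 1 lower in TDP-PBS, Rgs5, which fell by 0.23 ± 0.06 (edgeR adjusted p = 0.00212). Of 7 smooth muscle markers 2 were higher, Tagln at 0.51 ± 0.17 and Des at 0.41 ± 0.14 (edgeR adjusted p = 0.0130 and 0.0124). Of 8 markers of perivascular fibroblasts 2 were higher, Lum and Col1a2, and 1 lower, Col6a1, at 0.51 ± 0.20, 0.40 ± 0.13 and −0.39 ± 0.12 (edgeR adjusted p = 0.0306, 0.0138 and 0.00601). Of 13 genes of the basement membrane 5 were higher and 1 lower. Sparc, which binds collagen, rose by 0.90 ± 0.08, from 144 ± 14.8 to 269 ± 59.3 CPM, and Col4a1 by 0.37 ± 0.09 (edgeR adjusted p = 8.49e-13 and 0.000279), and Lama4, the laminin chain of endothelium, fell by 0.24 ± 0.09 (edgeR adjusted p = 0.0283). Of 11 genes of the astrocyte end-feet that wrap the vessels 2 were higher and 4 lower, with Slc1a2 falling by 0.36 ± 0.07 and Gja1 by 0.29 ± 0.08 (edgeR adjusted p = 7.01e-05 and 0.00283) and Gjb6, a connexin gene, rising by 0.24 ± 0.10 (edgeR adjusted p = 0.0405). For most of these lists the share of called genes lay near or under the background of the comparison, and of the lists drawn only the inflammatory signals were called in nearly all members.

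**Figure D4:**
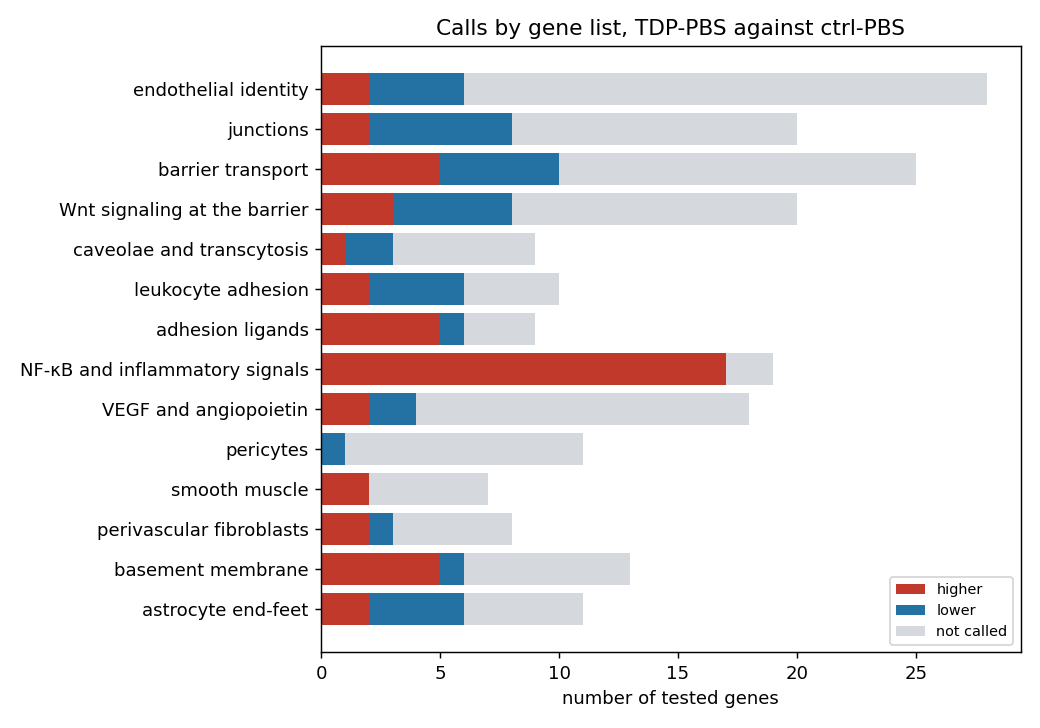
Number of tested genes of each list called higher (red), lower (blue) or not called (gray) in TDP-PBS against ctrl-PBS (edgeR, adjusted p under 0.05). The inflammatory signals have 17 of 19 genes higher, and the pericyte list 10 of 11 not called.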

How the data were processed

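The authors prepared mRNA libraries from 200 ng of RNA from about 30 mg of neocortex and sequenced paired 100 bp reads. They aligned them to GRCm38.p6 (mm10) and deposited 1 table of raw read counts per gene symbol and mouse. Their processing notes list HISAT, HISAT2, Bowtie, Bowtie2 and RSEM, with no role given, so the whole numbers may be rounded RSEM estimates. Annotation, strand setting and the treatment of shared reads are not given in the sources used here. Antisense genes overlap parts of Cdh5, Slc2a1, Vcam1 and Icam1. Abcb1a overlaps Gm42684 on its own strand and Gm42686 on the opposite strand, and Slc2a1 also overlaps Mir1957a on its own strand. How reads from the shared stretches were assigned is therefore not known.

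Genes were kept by filterByExpr with the groups as design (minimum count 10, minimum total 15). One edgeR 4.0.16 model (glmQLFit, glmQLFTest; R 4.3.3) with TMM factors covered the 4 groups and 49 mice, with Benjamini-Hochberg adjustment over 18220 genes and a threshold of 0.05. Standard errors came from the F statistic. CPM were computed from the counts, and log2 CPM used a prior count of 2. DESeq2 1.42.0 and limma-voom with quality weights (limma 3.58.1), other scalings, filters and covariates, and fits without each mouse were alternatives. The fit was tested on simulated data. Each library is a separate animal, labelled by its number, group and sex. No 2 libraries of a group agreed within sampling noise (smallest chi-squared per degree of freedom 7.24). The 95% confidence intervals came from the edgeR fit and include the spread between mice. The floor on counts covers counting error only. Gene positions and exon lengths came from GENCODE (GRCm38) by symbol, and upstream bases from RefSeq (GRCm38.p6).

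The 10 members and all gene lists were chosen with earlier results of these data known. From each list the text names the 2 largest changes each way among genes called in TDP-PBS against ctrl-PBS, apart from 2 genes that are not reported here. For lists of other cell types it gives sums. For Cldn5, Slc2a1, Icam1 and Vcam1 it names the 5 genes with the highest r. Of the remaining lists, oligodendrocyte markers had 0 of 6 genes called in TDP-PBS, choroid plexus markers 0 of 6, and markers of olfactory bulb and pituitary 4 of 5 lower, with sums of 2.86 to 130 CPM in ctrl-PBS and 3.19 to 9.41 CPM in TDP-PBS. Neuronal markers had 5 of 8 lower. In the immunized groups, choroid plexus markers had 4 of 6 higher in TDP-10+12 and 1 of 6 higher in TDP-15 against ctrl-PBS.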

Additional observations from a re-analysis of the deposited data

Results flagged for a closer look

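Of the groups of 10 mice, TDP-PBS and TDP-10+12, 1 value lay far from the rest of its group. Flt1 in TDP-10+12 mouse 200 was 36.4 CPM, with the next lowest of the 10 mice at 43.8 CPM. The gap was 0.557 of the group's range, above Dixon's 95% limit of 0.466. Mouse 200 is also one of the 4 mice with over 1000 CPM of choroid plexus markers. Of 20 combinations of member and group examined, this was the 1 found, and chance alone gives about 1 in 20. The larger groups, ctrl-PBS and TDP-15, were not examined in this way. The Icam1 level of TDP-15 mouse 126, at 22.1 CPM with the next mouse at 12.0 CPM, is therefore not among these results.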

How the results depend on the processing

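Of 1769 alternative values of the reported results, 1709 kept their direction and their side of the threshold, 26 lost a call, 12 gained one, 19 changed sign and 3 counts moved by over 1.5 times. The calls of Icam1, Vcam1 (all 3 groups against ctrl-PBS) and Slc2a1 (TDP-PBS and TDP-15) held under every alternative. The mean of the endothelial genes as a covariate raised the number of members called in TDP-10+12 against ctrl-PBS from 2 to 4. It turned Cdh5 in TDP-PBS to 0.0186, Cldn5 in TDP-15 to 0.0143 and Pecam1 in TDP-15 to 0.16, all against ctrl-PBS, and Slc2a1 and Vcam1 in TDP-15 against TDP-PBS to 0.00097 and 0.0658. With limma-voom the last was 0.0201. Cdh5 in TDP-15 was also not called with no filter (edgeR adjusted p = 0.0801), sex as a covariate (0.0552) or only the 2 groups compared (0.0537). That last fit called Flt1 in TDP-10+12 lower (edgeR adjusted p = 0.0258). DESeq2 size factors gave 2 caveolar genes higher in place of 1, and DESeq2 gave 2 olfactory and pituitary genes lower in place of 4.

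Leaving out 1 mouse at a time gave sign changes only where no call was made. The ranges were −0.13 to 0.0196 for Cldn5 in TDP-PBS (sign changed without TDP-PBS 42 or 251) and −0.0629 to 0.0024 for Pecam1 in TDP-15 (without ctrl-PBS 71). Between rNLS8 groups they were −0.00018 to 0.30 for Icam1 in TDP-15 against TDP-PBS, −0.0789 to 0.0234 for Vcam1 in TDP-10+12 against TDP-15, −0.10 to 0.0080 against TDP-PBS, and −0.0666 to 0.0308 in TDP-15 against TDP-PBS. Slc2a1 in TDP-10+12 was called without mouse 242, 277 or 337 (lowest edgeR adjusted p = 0.0373), Abcb1a in TDP-15 without ctrl-PBS 41 or 71 (lowest 0.0264) and Mfsd2a in TDP-PBS without mouse 196 (0.0489). The causes were not tested. For the other 7 members between rNLS8 groups, 53 of 658 alternative values changed sign and none was called (lowest adjusted p = 0.741). The 4 correlations stayed positive and past the threshold with a prior count of 0.5 and in the 32 rNLS8 mice alone.

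The alternative without the 4 mice rich in choroid plexus markers was chosen after seeing the data. It left 4, 2 and 4 members called in the 3 comparisons with ctrl-PBS. Differences under about 0.1 on the log2 scale were within the intervals of most members, and Ocln and Icam1 rest on 41 to 102 and 40 to 435 counts per mouse. No paired analysis was possible because the groups share no replicate numbers and the labels used here do not give litters, although the study placed littermates in different groups.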
